A study of Mus musculus with 12 samples.

Results

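The 6 cells described here are single blastomeres of 3 mouse embryos that were split at the 2-cell stage, and they are the samples titled experiment 1 in a series of 12 samples. They form pairs D, I and L, each with a cell 1 and a cell 2, and are written D1, D2, I1, I2, L1 and L2. All embryos came from CF-1 mice bred naturally and were flushed from the oviduct about 36 h post coitus, with no treatment, transgene or hormone named in the labels. The zona pellucida was slit and the blastomeres were squeezed out in turn. Total RNA of each cell was purified on a glass filter, its poly(A) part was amplified in successive rounds with an in vitro transcription step, and the labelled cRNA was put on an Agilent array of the mouse genome. A group in the comparisons is therefore 1 embryo, represented by its 2 cells. That the cells of a pair come from 1 embryo was read from the series title and the protocol, since the sample labels name only blastomere pairs. The labels do not say what the cell numbers stand for, and differences between embryos rest on 1 embryo per group.

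At the 2-cell stage the mouse embryo still carries transcripts stored in the oocyte, while the first large wave of transcription from the embryonic genome is under way. The oocyte stock includes zona pellucida glycoproteins, oocyte homeobox factors and the subcortical maternal complex, a protein assembly under the plasma membrane that the cleaving embryo needs. The activation wave includes short-lived families such as Zscan4, Tcstv and Usp17l. Sister blastomeres inherit the cytoplasm of the same zygote, so a transcript level can be shared by sisters, can differ between embryos, or can differ between the sisters themselves.

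Each array carried 43379 non-control spots for 41174 probes, and the share of spots whose red signal was well above background, the detection flag of the scanner software, ran from 22.1% in D1 to 41.7% in L2. Values are log2 signals relative to the 75th percentile of the 6762 probes detected in all 6 cells, and no value is given below a common floor of -3.98. The cells of pair D were scanned on 1 slide and those of pairs I and L on another, so slide and pair D cannot be told apart. The oocyte and 2-cell identity of the samples was borne out by their markers. Of 36 maternal genes on the array, 32 or 33 were detected in each cell, and Zscan4c, Zfp352 and Tcstv1 were detected in all 6. Markers of oviduct epithelium were detected as well, 15 to 17 of 20 genes per cell, as were 14 to 16 of 18 markers of stroma and smooth muscle. Macrophage and leukocyte markers numbered 6 of 20 in D1 and 13 to 18 in the other cells. Of all 21301 genes on the array, 6982 were detected in D1 and 8798 to 11567 in the other cells. Values of these markers are given below beside the results they move with.

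Sister cells were on average closer to each other than cells of different embryos, by a margin that 3 embryos cannot resolve. Over the 18373 probes detected in at least 2 cells, the root mean square log2 difference was 0.771 between D1 and D2, 0.794 between I1 and I2 and 1.01 between L1 and L2. The mean over sisters was 0.859 ± 0.132 (SD, n = 3), and the mean over the other cell pairs was 0.923 ± 0.124 (SD, n = 12). Of the 15 ways to pair 6 cells, the true pairing gave the lowest mean, with an exact one-sided permutation p of 0.0667, the smallest that 15 pairings allow, or 0.133 after Benjamini-Hochberg adjustment over the 2 values tested this way. The nearest cells were not sisters, since D2 and I1 differed by 0.741. The pair farthest apart was I1 and L2, at 1.15.

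**Figure D1:**
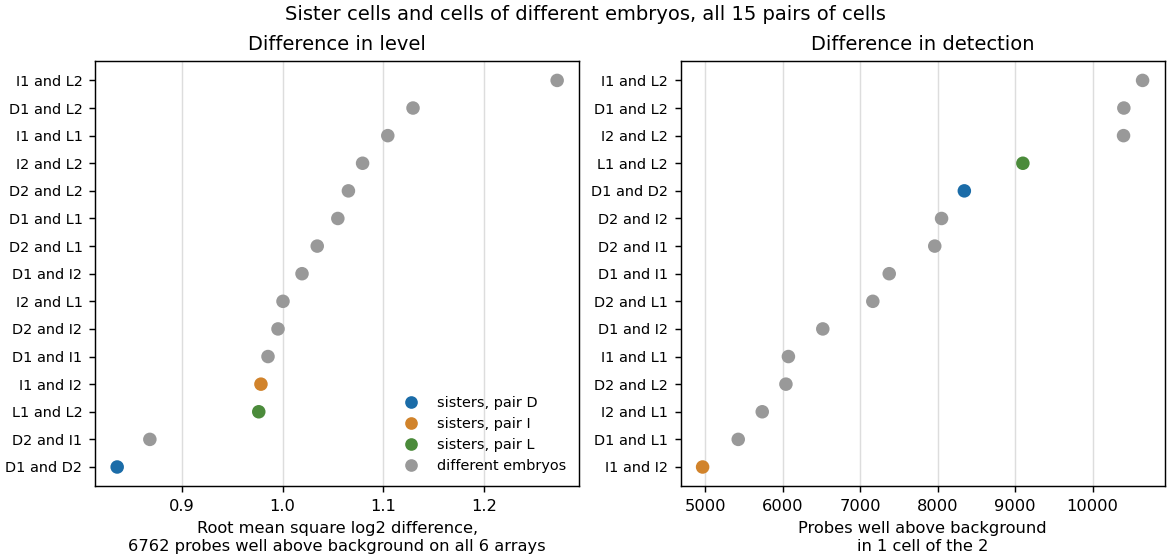
Root mean square log2 difference (left, 6762 probes detected in all 6 cells) and number of probes detected in only 1 cell of the 2 (right) for all 15 pairs of cells, sisters coloured and cells of different embryos in grey. On the left the sisters lie at 0.836, 0.979 and 0.976, with D2 and I1 at 0.868 between them. On the right only the sisters of pair I, at 4964 probes, lie below every pair of cells from different embryos.

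The same order held over the probes detected in all 6 cells. There the sisters differed by 0.836 in pair D, 0.979 in pair I and 0.976 in pair L, and the mean over different embryos was 1.05 ± 0.0971 (SD, n = 12). Pearson's r across these probes, which are not independent replicates, was 0.897, 0.874 and 0.871 for sisters and 0.900 for D2 and I1. Presence and absence showed less of this order. Detection differed between sisters at 8344 probes in pair D, 4964 in pair I and 9100 in pair L. The mean of 7469 was at rank 4 of the 15 pairings, with an exact one-sided permutation p of 0.267. The share of spots detected differed within pairs D (22.1% and 38.7%) and L (29.8% and 41.7%) and less within pair I (37.1% and 33.7%), and its part in these counts was not tested.

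Probes detected in exactly 2 cells were about as many per pair of sisters as per pair of cells from different embryos. The mean was 271 ± 354 for sisters (SD, n = 3) and 308 ± 683 for different embryos (SD, n = 12). The medians were 117 and 101. Of the 4503 probes detected in exactly 2 cells, 676 were detected in I1 and I2 alone. A further 117 were detected in L1 and L2 alone and 19 in D1 and D2 alone, against 2459 in D2 and L2 alone. D2 and L2 are the cells with the largest shares of spots detected. Conversely, 238 probes were detected in the 4 cells of pairs I and L and in neither cell of pair D, 119 in all but pair I, and 164 in all but pair L.

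For most transcripts detected in all 6 cells, embryos differed somewhat more than sisters did when compared by mean squares. Among the 6762 probes detected in all 6 cells, the median SD was 0.52 (log2) between sisters and 0.45 between embryo means. These SDs are not like for like, since an embryo mean averages its sister cells and so varies less than a single cell. The mean square between embryos, which allows for this averaging, exceeded that between sisters for 4034 probes (59.7%), with a median ratio of 1.43. The embryo accounted for 21.8% of the variance summed over these probes. That share was 12.2% among the dimmest probes, 21.5% among the middle ones and 34.3% among the brightest, in sets of 2254 probes each. Over all 18373 tested probes, where many values lie at the floor, the mean square between embryos was the larger for 8217 (44.7%).

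No probe passed a test between embryos. The limma moderated F test called 0 of 18373 probes (0.0%) at a Benjamini-Hochberg adjusted p under 0.05, and 1603 probes (8.72%) had an unadjusted p under 0.05. The smallest adjusted p was 0.125 (limma, Benjamini-Hochberg). Among single contrasts, the unadjusted count was 1024 (5.57%) for pair I against D, 1539 (8.38%) for L against D and 1605 (8.74%) for L against I, again with 0 calls each (0.0%). Pairs I and L, fitted alone within their slide, gave 0 calls, 1492 unadjusted and a smallest adjusted p of 0.250 with limma. The count rested on the cells of pair L and on the scaling, since it was 3831 without L1, 476 without L2, 39 when arrays were scaled over all probes and 28 after quantile normalization. Without L1, 2487 of the 3831 probes (64.9%) had both complete pairs at the floor. The values below are therefore descriptions of these cells.

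In 3155 of the 6762 probes detected in all 6 cells (46.7%), both cells of 1 embryo lay above or below all other cells. In 710 (10.5%) the 3 embryos did not overlap at all. With 6 values in 3 pairs, such separations are also frequent under a random order, and the shares were not tested against it. Pair L stood above the other cells most often, at 1019 probes (15.1%), and below them at 597 (8.83%). Pair I stood below at 952 probes (14.1%) and above at 304 (4.5%). Pair D stood above at 476 (7.04%) and below at 517 (7.65%). The range over the 6 cells passed 2-fold at 5699 probes (84.3%). Named genes were chosen by the width of this gap, so their separation is a description.

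A530032D15Rik, which lies near the nuclear body genes Sp110 and Sp140 on chromosome 1, had the smallest p of the named genes. Its log2 signal was 1.37 and 1.38 in D, -2.17 and -2.10 in I and -0.56 and -0.33 in L. Sisters nearly coincided while the 3 embryos were fully apart, D over I by 11.4-fold and L over I by 3.23-fold (limma F test, unadjusted p 2.89e-05, Benjamini-Hochberg adjusted p 0.125). C130026I21Rik followed the same order, with 0.41 and 0.45 in D, no detection in I and -0.80 and -0.10 in L. Its cells of pairs D and L averaged at least 15.7-fold over those of pair I. Its other probe was dim, at most -3.52 in any cell, and also lay highest in pair D and at the floor in both cells of pair I.

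These genes lie close together on chromosome 1, and the stretches before their start sites are shown to set out how alike these neighbours are there. They lie outside the transcripts and say nothing of what the probes bind. No probe carried the name Sp140, so no level of that gene is given. The sequences are the 250 bases before the RefSeq start (GRCm38.p6) of A530032D15Rik (chr1:85109854-85110103, minus strand), C130026I21Rik (chr1:85270567-85270816, minus strand) and Sp140 (chr1:85600453-85600702, plus strand), read 5′ to 3′ on the gene's strand. Capitals mark the longest run identical in all 3, which is 108 bases long.
A530032D15Rik: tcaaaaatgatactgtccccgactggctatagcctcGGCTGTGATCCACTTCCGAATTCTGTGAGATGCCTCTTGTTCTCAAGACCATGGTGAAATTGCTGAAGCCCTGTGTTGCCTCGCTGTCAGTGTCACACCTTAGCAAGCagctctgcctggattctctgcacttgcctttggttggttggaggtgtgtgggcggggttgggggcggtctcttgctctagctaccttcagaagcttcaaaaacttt
C130026I21Rik: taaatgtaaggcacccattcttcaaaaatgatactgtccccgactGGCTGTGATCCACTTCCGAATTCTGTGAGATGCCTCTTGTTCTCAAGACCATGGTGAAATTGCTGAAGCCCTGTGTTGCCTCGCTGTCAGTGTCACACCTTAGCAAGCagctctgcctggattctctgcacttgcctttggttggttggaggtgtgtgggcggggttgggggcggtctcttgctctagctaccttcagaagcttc
Sp140: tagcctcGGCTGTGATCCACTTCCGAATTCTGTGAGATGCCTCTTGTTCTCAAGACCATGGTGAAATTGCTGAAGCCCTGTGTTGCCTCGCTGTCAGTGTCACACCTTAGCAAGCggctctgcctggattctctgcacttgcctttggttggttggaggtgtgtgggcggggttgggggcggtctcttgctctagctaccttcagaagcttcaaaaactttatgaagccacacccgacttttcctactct
The run begins 214 bases before the start of A530032D15Rik, 205 before that of C130026I21Rik and 243 before that of Sp140. Among 32851 windows of 27025 genes in the same table, none of another gene held it. Probe and transcript sequences were not compared here, so whether the probes tell the genes apart was not tested.

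Sp110, a nuclear body protein and a member of the genome activation list, was 4.11 and 4.18 in D, 2.72 and 2.87 in I and 4.20 and 4.44 in L. Pair I was lower than the other 4 cells, by 2.55-fold against D and 2.88-fold against L. The same pattern was seen for Trim61, a member of the tripartite motif family, at 4.50 and 4.01 in D, 0.39 and 1.21 in I and 5.40 and 5.47 in L. Its mean in pair I was 11.0-fold below D and 24.9-fold below L. H2ac15, which encodes a histone H2A, was -1.10 and -1.24 in D, -2.88 and -2.80 in I and -0.85 and -0.64 in L, again lowest in pair I in both cells. Tcra, the T cell receptor alpha locus, was at the floor in both cells of pair I and between -0.85 and 0.31 in the other cells, although its other 2 probes were at or next to the floor in every cell. Prkar2a, a regulatory subunit of protein kinase A, and the zinc finger gene Zfp407 completed the 5 genes with the widest gap below the others in pair I.

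Genes high in pair I alone were fewer and closer to the others. Uhrf2, a ubiquitin ligase that reads modified cytosine, was -3.71 and -3.56 in D, -1.62 and -1.42 in I and -2.87 and -3.08 in L. Both cells of pair I exceeded all others, by 4.33-fold over D and 2.74-fold over L, but 2 other probes of Uhrf2 were at or near the floor in all cells. Fam166c, the bicarbonate transporter Slc4a5, the tetraspanin Tspan1 and Ccdc115, a factor of proton pump assembly, were the other 4.

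Pair D stood above the other cells for Pheta1, an endosomal adaptor protein, at 3.46 and 3.22 against 0.77 and 0.34 in I and 0.64 and 0.16 in L. Its cells were 6.90-fold over I and 7.68-fold over L, and the groups did not overlap. Sapcd2, a regulator of spindle orientation, was 2.46 and 2.31 in D, 0.20 and -1.29 in I and -0.51 and -1.40 in L. Here the sisters of pair I differed by 2.82-fold and those of D by 1.11-fold. Scaper, which binds cyclin A, and Zfp707 were also higher in both cells of pair D.

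Pair D stood below the others for Slc14a1, a urea transporter, at -2.35 and -0.94 against 1.67 and 1.79 in I and 1.96 and 2.59 in L. Both of its probes put the 2 cells of pair D below the other 4, and the means differed by 10.4-fold from I and 15.2-fold from L on the brighter probe. Socs3, a feedback inhibitor of cytokine signalling, was -3.24 and -1.83 in D, -0.61 and 0.35 in I and 0.88 and 1.44 in L. In this gene cell 2 exceeded cell 1 in all 3 pairs, by 1.48-fold to 2.64-fold. Scmh1, a Polycomb group gene, was -2.05 and -2.07 in D and between -0.66 and -0.35 elsewhere, a gap much wider than any sister difference. Wfdc3 and the coronin Coro7 showed the same direction.

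Pair L stood above the others for Slc26a9, a chloride transporter, at -0.86 and -0.79 against -3.83 to -3.13 in the other 4 cells. Dkkl1, a secreted protein of the Dickkopf-like kind, was -1.13 and -1.14 in D, -1.09 and -0.44 in I and 1.26 and 1.22 in L. Its sisters in pair L differed by 1.03-fold, while pair L exceeded D by 5.19-fold and I by 4.02-fold. Spdye4b, a Speedy family activator of cyclin-dependent kinases, Ubr2, a ubiquitin ligase, and Zfp951 were the other 3, and other probes of Ubr2 lay at or near the floor in most cells.

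Pair L stood below the others by the widest gap of these genes at Myl9, a regulatory myosin light chain of smooth muscle, which was 2.72 and 2.88 in D, 3.89 and 2.13 in I and -1.80 and -2.10 in L, a mean 27.0-fold below D and 31.1-fold below I. Tagln, an actin-binding protein of smooth muscle, was 1.87 and 2.05 in D, 3.51 and 1.81 in I and -1.0 and -1.19 in L. Both genes are in the list of stroma and smooth muscle markers, and that list is set out below. Gpd1, a glycerol phosphate dehydrogenase, was between -0.15 and 0.43 in D and I and -2.98 and -2.62 in L, with its second probe undetected throughout. The transcriptional cofactor Cited4 and the transglutaminase Tgm2 were the other 2 genes of this kind.

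**Figure D2:**
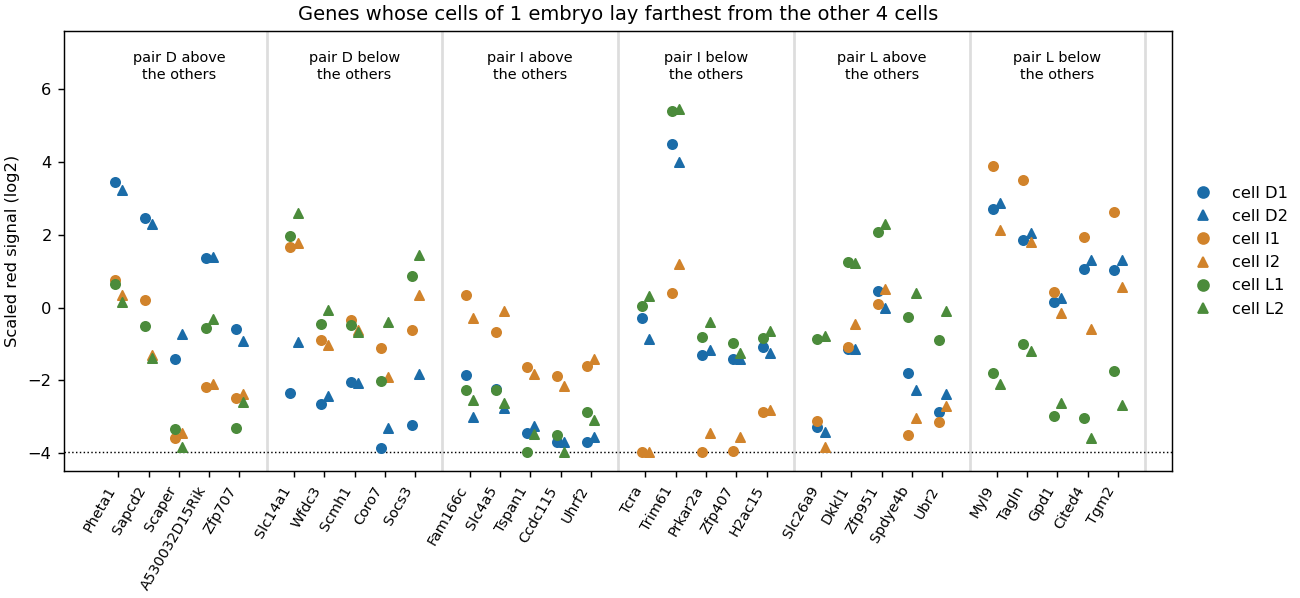
Log2 signal in each of the 6 cells for the 5 genes with the widest gap between 1 embryo and the other 4 cells, above and below, for each embryo, with circles for cell 1, triangles for cell 2 and a dotted line at the floor. Sisters lie close together for A530032D15Rik (1.37 and 1.38 in pair D) and apart for Cited4 in pair I (1.93 and -0.59).

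Some transcripts were not detected in 1 embryo. Ccl24, a chemokine, was not detected in pair D and averaged at least 14.4-fold more in the other cells, where it was -0.50, -1.60, 2.63 and -1.06. L1 alone was far above the other detected cells, on its second probe too. Phf11a was not detected in pair D and was -0.29, -0.34, -1.26 and -0.59 in the other cells, at least 10.3-fold over it on average. F10, coagulation factor X, was not detected in pair D either (at least 9.17-fold), but lay at -2.77 and -2.70 in pair I and at 2.32 and 0.03 in pair L. AI324046 was 0.13, -0.23, 0.84 and 1.29 in pairs D and I and undetected in pair L, at least 22.4-fold lower, though 3 other probes of this gene were dim or undetected in every cell. Col18a1, a basement membrane collagen, was likewise undetected in pair L (at least 8.42-fold). Transcripts detected in the 2 sisters and in no other cell were dim. The 5 brightest for each embryo averaged at least 2.27-fold to 4.46-fold over the floor, and Synj2, a phosphoinositide phosphatase, was 0.34 in D1 while D2, though flagged as detected, lay at the floor.

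Maternal oocyte genes separated the embryos more than the median gene did. Of 43 genes in the list, 36 were on the array, 33 were tested and 29 were detected in all 6 cells. The median SD was 0.35 between sisters and 0.55 between embryo means, and the median ratio of mean squares was 5.32, beside 1.45 over all 5444 genes detected in all 6 cells. The ratio exceeded 1 for 23 of the 29, beside 59.9% of all genes. The medians of this list and of all genes were 3.64 and 1.41 with quantile normalization, 7.16 and 1.54 with normexp and 4.62 and 1.5 from the deposited table, but 1.41 and 1.30 with arrays scaled over all probes. Both cells of 1 embryo lay apart from the other 4 cells for 21 of the 29 genes, beside 46.8% of all genes, and pair L lay above the others for 18, beside 15.4%. Pair L had the highest mean for 24 of the 29 (42.9% of all genes). It was highest for 20 to 25 when any 1 cell was left out. With arrays scaled over all probes, pair L was highest for 11 of the 29, beside 13.6% of all genes. Pair I was highest for 17 under that scaling, beside 3821 of all 5444 genes. The median deviation of pair L from the mean of the 3 embryos was 0.57 for this list, -0.86 for oviduct epithelium markers, -1.47 for stroma and smooth muscle markers and 1.19 for macrophage and leukocyte markers, and the part of those markers in the order of embryos was not tested. A total of 16 of the 33 had an unadjusted p under 0.05 in the limma F test, beside 10.0% of all 12426 genes tested. This count was 20 with normexp background correction (12.6% of all genes), 4 with quantile normalization (8.40%) and 3 with scaling over all probes (7.48%). From the deposited value table it was 2, beside 21.7% of all genes. A lower common floor and a floor per array also gave 2, beside 13.2% and 29.4%. The count was lower when any 1 cell was left out. Without L1 or without L2 the share of the list fell below that of all genes, in fits that leave 1 cell in pair L. No member passed at an adjusted p under 0.05 with all 6 cells.

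Bcl2l10, an oocyte member of the Bcl-2 family, was 3.59 and 3.77 in D, 3.66 and 4.01 in I and 4.56 and 4.66 in L. Pair L was the highest in both cells, by 1.91-fold over D and 1.71-fold over I. Tcl1, a cofactor of the kinase Akt, was 1.20 and 1.34 in D, 1.47 and 2.03 in I and 2.51 and 2.75 in L. Oosp1, an oocyte secreted protein, was 4.33 and 3.78 in D, 4.34 and 4.61 in I and 5.17 and 5.22 in L, and its second probe gave the same order of embryos. In each of these genes the cells of pair L exceeded all others. E330034G19Rik was lowest in pair I, at -1.06 and -0.51 against 1.03 and 1.57 in D and 2.51 and 2.86 in L, and its second probe gave the same order. Members at the other end had sisters as far apart as embryos. Nobox, an oocyte transcription factor, was 0.59 and 0.60 in D, 0.11 and 1.05 in I and 0.51 and 1.03 in L, a ratio of 0.12.

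The subcortical maternal complex and its NLRP relatives gave a median ratio of 2.68 over 10 genes detected in all 6 cells, of 14 in the list, 13 on the array and 11 tested. Pair L had the highest mean for 9 of the 10, beside 42.9% of all genes. Under scaling over all probes it was highest for 2, beside 13.6%, and the median ratio was 0.95, beside 1.30. Padi6, the peptidylarginine deiminase of the complex, was -1.01 and -0.45 in D, -0.87 and -0.52 in I and -0.04 and -0.02 in L, with pair L above the others. Khdc3 was -0.13 and -0.96 in D, -1.17 and -2.36 in I and 0.40 and 0.88 in L, lowest in the cells of pair I. Nlrp14 took another order, with 1.05 and 1.5 in pair I above 0.41 and 0.43 in D and 0.21 and 0.60 in L. Tle6, a core subunit, was even, with all 6 cells between 1.87 and 2.58 and a ratio of 0.01. In the test between embryos 2 of the 11 genes had an unadjusted p under 0.05 with limma, beside 10.0% of all genes.

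Genes of embryonic genome activation had a median ratio of 3.17 over 15 genes detected in all 6 cells, of 41 in the list, 22 on the array and 20 tested, of 2.11 with quantile normalization and of 1.30 under scaling over all probes. Both cells of 1 embryo lay apart from the others for 9 of the 15, and 3 of the 20 tested had an unadjusted p under 0.05, beside 46.8% and 10.0% of all genes. Besides Sp110, these separations were modest. Usp17la, a deubiquitinase of a multicopy family, was -0.08 and 0.16 in D, -0.16 and 0.23 in I and 1.00 and 1.24 in L. Obox3, a homeobox gene, was 2.66 and 1.99 in D, 1.60 and 2.44 in I and 3.46 and 3.37 in L. Both were highest in pair L, as was Eif1a, a translation initiation factor, at 1.74 and 2.10 against 1.06 to 1.35 elsewhere. Zscan4c, the telomere-linked marker of this stage, was -0.61 and -0.87 in D, -2.63 and 0.46 in I and -1.01 and -0.94 in L. Its sisters in pair I lay at opposite ends of the 6 cells, and on its second, dimmer probe they were -3.30 and -3.17. Usp17l, Zscan4, Tcstv, Obox and Nlrp genes have close copies, and their values may mix those copies.

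**Figure D3:**
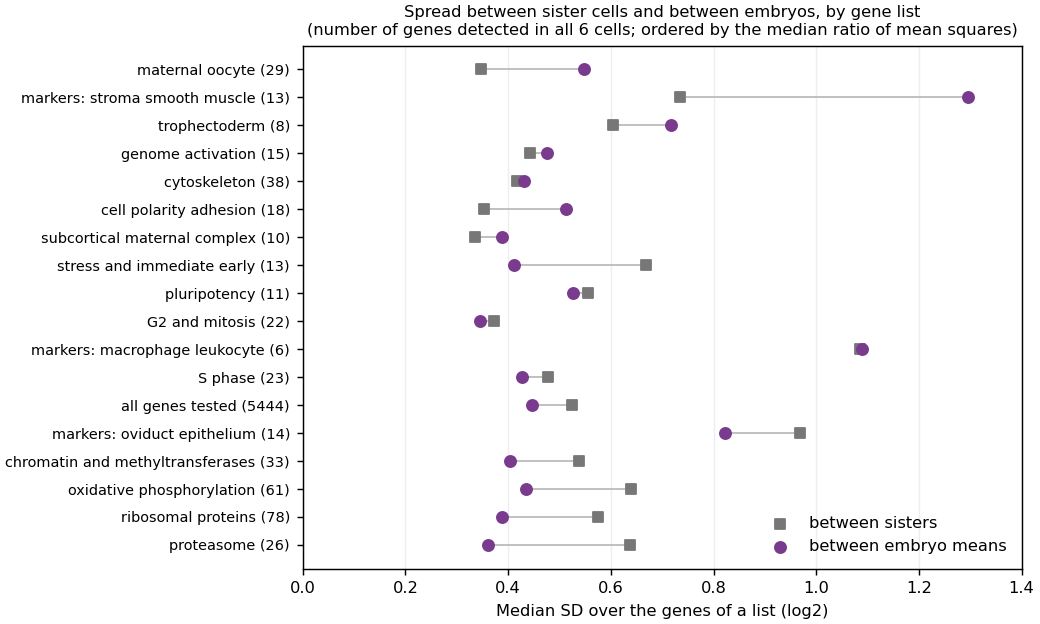
Median SD between sisters (squares) and between embryo means (circles), in log2 units, over the genes of each list that were detected in all 6 cells, lists ordered by the median ratio of mean squares. The maternal oocyte genes lie at 0.35 between sisters and 0.55 between embryos, and the proteasome genes at 0.64 and 0.36. Embryo means average sister cells and so vary less than single cells, and only the ratio of mean squares allows for this.

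Lineage factors were thinly represented. Of 20 pluripotency genes on the array, 11 were detected in all 6 cells, with a median ratio of 2.22 (1.42 from the deposited table). None of the 17 tested had an unadjusted p under 0.05, beside 10.0% of all genes. Sox2 and Nanog were not detected in any cell. Pou5f1 was -1.35 and -0.84 in D, -0.92 and -0.01 in I and 0.13 and -0.17 in L, so that pair I overlapped both other embryos. Stat3, a cytokine-activated factor, was 1.90 and 0.91 in L and at most -0.01 in the other 4 cells, while Klf5 was -2.44 and -0.91 in L and between -0.21 and 0.72 elsewhere. The embryos did not overlap at pair L for either gene.

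Of 20 trophectoderm genes, 8 were detected in all 6 cells and 17 were tested, 5 of them with an unadjusted p under 0.05 (3 under scaling over all probes), beside 10.0% of all genes. Each of the 8 had 1 embryo apart from the other cells, beside 46.8%. The median ratio was 4.22, and 2.30 with quantile normalization. Tfap2a, an AP-2 factor, was -2.18 and -2.45 in D, at the floor in both cells of I and -2.21 and -1.55 in L. Krt18, an epithelial keratin, was 4.03 and 4.37 in D, 5.02 and 3.64 in I and 1.63 and 1.62 in L. Krt8 and Krt18 are also in the oviduct marker list, which was lower in pair L. Cdx2, the trophectoderm master factor, was detected in I1 and L2 only, and Tead4, a transcription factor of the Hippo pathway, in D2 only.

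Chromatin genes, among them the arginine methyltransferases, varied between sisters nearly as between embryos. Their median ratio was 1.14 over 33 genes detected in all 6 cells, of 55 on the array and 47 tested. Of the tested, 7 had an unadjusted p under 0.05, beside 10.0% of all genes. Carm1, a histone arginine methyltransferase, was -2.49 and -1.21 in D, -1.88 and -2.49 in I and -1.26 and -2.76 in L. Its sisters differed in every pair, with no common direction of cell 2 against cell 1, and the embryos overlapped, at a ratio of 0.08. Dnmt3a, a DNA methyltransferase, was -2.05 in I1 and between -1.06 and -0.46 in the other cells. Hdac1, a histone deacetylase, was 0.22 and 0.04 in D and between 0.59 and 0.83 in the other cells, and so lower in pair D than in I and L. Kdm6b, a histone demethylase, was -0.84 and -0.23 in L and at most -1.69 elsewhere.

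Cell cycle genes differed between embryos in single members. In the list for G2 and mitosis the median ratio was 2.09 over 22 genes detected in all 6 cells, of 34 on the array, and 6 of 32 tested had an unadjusted p under 0.05, beside 10.0% of all genes. Under scaling over all probes the ratio was 1.09 and the count 2. Cdca8, a subunit of the chromosomal passenger complex, was 2.03 and 2.17 in D, 1.15 and 1.32 in I and 1.88 and 1.74 in L, lowest in pair I and apart in all 3 embryos. Aurka, a spindle kinase, was 0.63 and 0.67 in D and between -0.14 and 0.15 in the other cells. Ccnb1, the mitotic cyclin B1, was 0.58 and 0.83 in D, 0.30 and 0.47 in I and 1.04 and 1.18 in L, with no overlap between embryos. On its 2 dimmer probes D and I overlapped, and on 1 of them L overlapped both. The S phase list had a median ratio of 1.59 over 23 genes of 38 on the array, beside 1.45 for all genes. In it 4 of 36 tested had an unadjusted p under 0.05, beside 10.0% of all genes. Mcm5, a subunit of the replicative helicase, was -1.28 and -1.90 in D, -3.51 and -3.40 in I and -2.48 and -2.57 in L. Mcm6, another subunit, was 2.68 and 2.63 in D against 1.63 to 2.24 in the other cells. Both subunits were highest in pair D, with I and L in opposite order.

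Polarity and adhesion genes had a median ratio of 3.0 over 18 genes detected in all 6 cells, of 31 on the array, beside 1.45 for all genes. Of these lists' members, 4 of 28 tested had an unadjusted p under 0.05, beside 10.0% of all genes. The ratio was 1.78 under scaling over all probes, beside 1.30 for all genes. Mark2, a polarity kinase, was -1.40 and -1.36 in D and between -0.91 and -0.55 in the other cells. Cdh1, the cadherin of compaction, was -2.14 and -2.61 in D, at the floor in both cells of I and in L1 and -3.50 in L2. Cytoskeleton genes had a median ratio of 3.13 over 38 genes detected in all 6 cells, all 48 on the array being tested and 7 having an unadjusted p under 0.05, and 27 of the 38 had 1 embryo apart, beside 10.0% and 46.8% of all genes. The ratio was 1.80 under scaling over all probes. Tubb3, a beta tubulin, was -2.75 and -2.76 in D, -3.14 and -3.17 in I and -1.77 and -1.67 in L. Its 3 embryos were apart while sisters nearly coincided, although the largest difference, L over I, was 2.71-fold. Arpc2, a subunit of the actin nucleator Arp2/3, was -2.54 and -2.47 in D, -2.72 and -2.61 in I and -1.90 and -1.92 in L.

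Of 30 stress and immediate early genes, 13 were detected in all 6 cells, with a median ratio of 2.36 (0.96 under scaling over all probes). In this list 4 of 26 tested had an unadjusted p under 0.05, beside 10.0% of all genes. Dnajb1, a heat shock co-chaperone, was 1.55 and 1.45 in D, 2.34 and 2.34 in I and 1.37 and 1.75 in L, highest in both cells of pair I, while its dimmer probe was highest in L (-2.15 and -2.18) and not in I (-2.69 and -2.72). Trp53 was lowest in pair I, at -2.16 and -2.04 against -1.41 to -0.59 in the other cells. The immediate early gene Junb was 1.47 in L1, -1.0 in L2 and between -2.31 and -2.11 in the other 4 cells.

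Genes of basic metabolism varied between sisters about as much as between embryos. The median ratio was 1.09 for oxidative phosphorylation (61 genes detected in all 6 cells of 74 on the array), 0.82 for the proteasome (26 of 40) and 0.99 for ribosomal proteins (78 of 80). In each list 2 genes had an unadjusted p under 0.05, out of 69, 38 and 80 tested, beside 10.0% of all genes. Under scaling over all probes the ratios were 1.94, 1.20 and 1.38, above the 1.30 of all genes in 2 of the 3 lists, and that of ribosomal proteins was 1.63 with quantile normalization. The widest sister differences were those of pair I. There, 58 of 61 oxidative phosphorylation genes were lower in I2 than in I1, beside 44.2% of all genes, with a median difference of -1.23, and 38 of them were lower by over 2-fold, beside 16.7%. The same held for 76 of 78 ribosomal protein genes (median -0.99) and 23 of 26 proteasome genes (median -1.03). With the other 2 scalings, normexp and the deposited table, the median in pair I was -1.16 to -0.99 for oxidative phosphorylation, -0.95 to -0.75 for ribosomal proteins and -1.0 to -0.54 for the proteasome.

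Pairs D and L differed from this for oxidative phosphorylation and the proteasome at the scaling used here. In pair D, 47 of 61 oxidative phosphorylation genes and 21 of 26 proteasome genes were higher in D2, beside 54.2% of all genes, with medians of 0.34 and 0.57, which were -0.18 and 0.04 under scaling over all probes. In pair L the medians were -0.16 and 0.19, and -1.41 and -1.06 under scaling over all probes, where the median of all genes was -1.04. Ribosomal protein genes were lower in cell 2 in all 3 pairs, for 54 of 78 in D and 69 of 78 in L, where 45.8% and 40.4% of all genes were lower. Ndufb3, a subunit of respiratory complex I, was -0.75 and -0.81 in D, 0.40 and -0.76 in I and -1.81 and -1.94 in L. Rps27, of the small ribosomal subunit, was 4.26 and 3.63 in D, 4.38 and 3.34 in I and 2.76 and 1.64 in L, with cell 1 the higher sister each time. Pair L had the lowest mean for 68 of the 78 ribosomal genes (31.6% of all genes) and for 48 when I1 was left out (28.2%). The count was 68 to 74 under the other scalings, beside 26.7% to 50.1% of all genes. Many ribosomal protein genes have processed copies that a probe may also bind.

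Maternal and cell cycle genes were higher in I2 than in I1 over the same arrays. Among maternal genes 27 of 29 were higher in I2, with a median of 0.57, beside 50.8% and 0.02 for all genes. In pair D 20 of the 29 were higher in cell 2, beside 54.2%, and in pair L 21, beside 59.5%. The medians in pair I were 0.63 for the subcortical maternal complex, 0.55 for genome activation, 0.58 for G2 and mitosis, 0.53 for S phase and 0.49 for chromatin genes. In pairs D and L the medians of these lists lay between -0.40 and 0.26. These differences are relative to the 75th percentile of each array, and scaling over all probes moved the median of all genes between sisters to -0.44 in D, 0.28 in I and -1.04 in L.

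**Figure D4:**
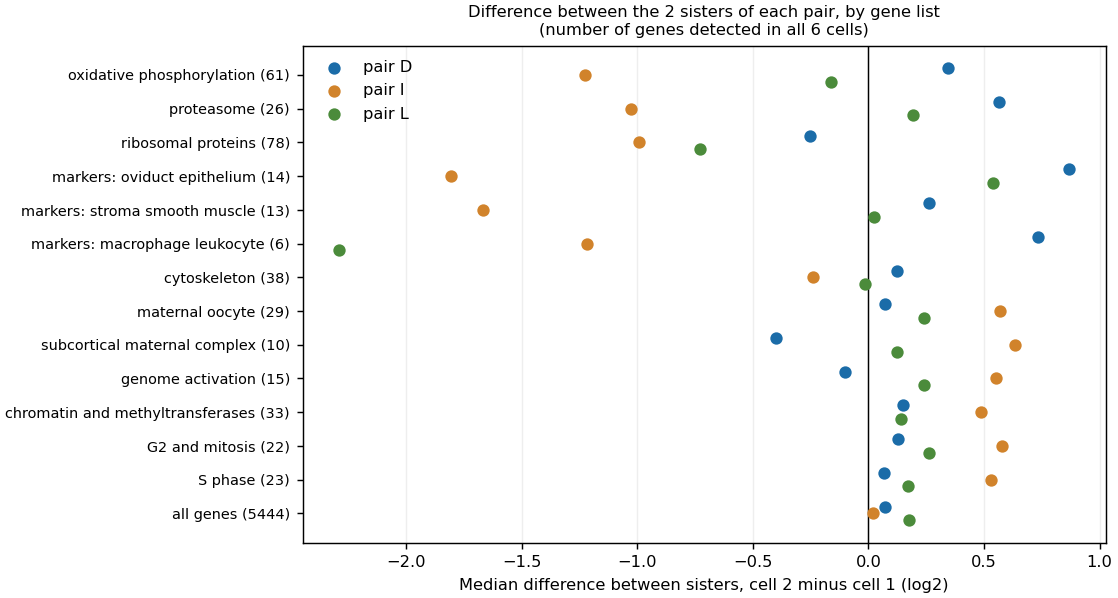
Median difference between sisters (cell 2 minus cell 1, log2) over the genes of each list detected in all 6 cells, 1 point per pair, with all genes at the bottom. Pair I separates metabolic and other-cell marker lists (-1.23 for oxidative phosphorylation, -1.80 for oviduct epithelium) from maternal lists (0.57), while pairs D and L lie nearer to 0 for most lists.

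Markers of the tissues around the embryo moved with these differences. In pair I none of the 14 oviduct epithelium genes detected in all 6 cells was higher in I2, 12 were lower and 11 were lower by over 2-fold, with a median of -1.80. All 13 stroma and smooth muscle genes were lower in I2, with a median of -1.67, and so were all 6 macrophage and leukocyte genes, with a median of -1.22. The summed linear signal of the oviduct list was 34.7 in D1, 61.0 in D2, 83.4 in I1, 22.4 in I2, 12.3 in L1 and 12.3 in L2. That of the stroma list was 49.2, 58.3, 108, 33.8, 24.0 and 17.3 in the same order. Both sums were highest in I1, and lowest in pair L. The sum for oxidative phosphorylation was also highest in I1, at 197, against 90.5 in I2 and 77.2 to 138 in the other cells. The part of other cells' RNA in the differences between I1 and I2 was not tested.

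Ovgp1, the oviduct glycoprotein, was 1.75 and 3.78 in D, 3.47 and 0.34 in I and 1.55 and 1.63 in L. Wfdc2, a secreted epithelial protein, was 2.20 and 3.1 in D, 3.65 and 0.84 in I and 0.65 and -0.81 in L. Krt19 was 1.13 and 2.64 in D, 2.89 and 0.14 in I and 0.05 and -0.07 in L. These genes differed most between I1 and I2, and D2 exceeded D1 in all 3. Col1a1, a fibrillar collagen, was 1.64 and 1.71 in D, 2.67 and 1.68 in I and -0.29 and -0.26 in L, a mean 3.86-fold lower in L than in D. Myl9, Tagln and Krt18, described above as low in pair L, belong to these lists. Pair L had the lowest mean for 10 of 13 stroma genes and 11 of 14 oviduct genes, beside 31.6% of all genes. The counts were 10 to 12 and 11 or 12 under the other scalings, beside 26.7% to 50.1% of all genes. With I1 left out they were 8 and 9, beside 28.2%. Defining markers of epithelium were partly absent, with Muc1 undetected in every cell, Pax8 detected in D2, L1 and L2 only, and Epcam, though flagged in every cell, at the floor in I1, I2 and L1. Pdgfrb was undetected in every cell and Pdgfra was detected in I1 only.

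Macrophage markers were highest in L1. Of the 6 detected in all 6 cells, all had their highest mean in pair L, beside 42.9% of all genes. Both cells of pair L lay above the other 4 for only 2, beside 15.4%. All 6 were over 2-fold lower in L2 than in L1, as were 515 of all 5444 genes. Lyz2, a lysozyme of macrophages, was 2.22 and 2.97 in D, 4.42 and 3.43 in I and 7.95 and 5.01 in L. Apoe was 5.28 in L1 and between 0.57 and 2.26 in the other cells, and Ctss, a lysosomal protease, was 2.45 in L1, -0.01 in L2 and at most -0.72 elsewhere. The receptor Csf1r was -0.29 in L1, at most -2.70 in the other cells and undetected in D1, D2 and I2, and Adgre1, the F4/80 antigen, was 1.97 in L1 and at most -2.46 elsewhere. The summed signal of the list was 318 in L1, 39.9 in L2 and 6.49 to 29.1 in the other 4 cells. The leukocyte antigen gene Ptprc lay at the floor in every cell, and was flagged as detected in L1 only. Ccl24 and F10, undetected in pair D, and Junb were highest in L1 as well, and whether macrophage RNA took part in those values was not tested.

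**Figure D5:**
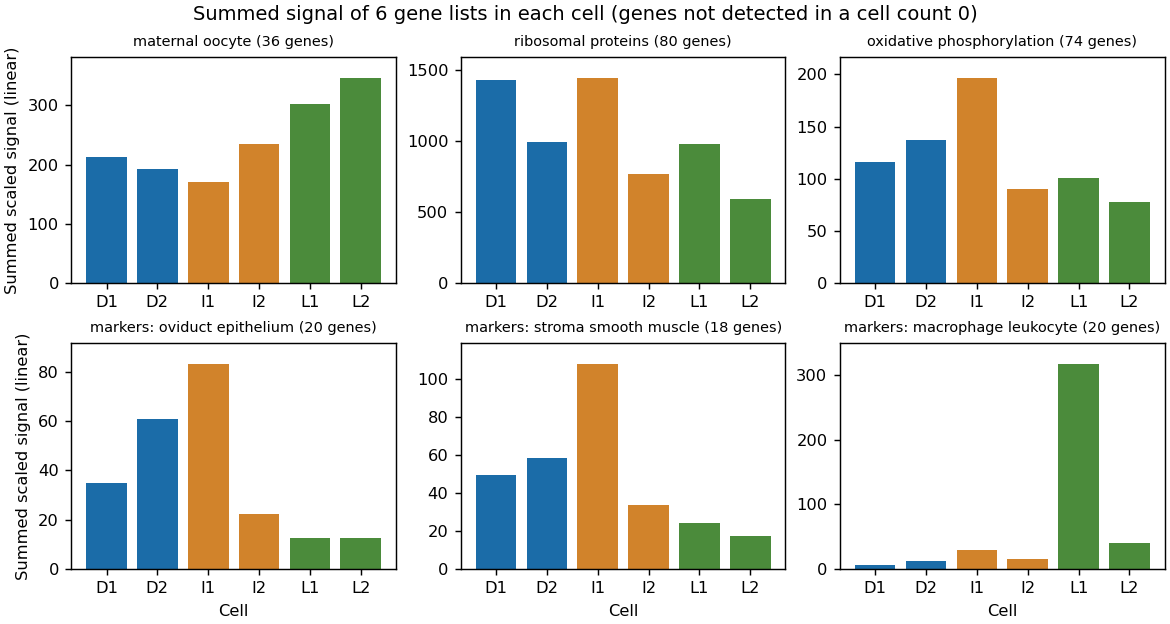
Summed linear signal of 6 gene lists in each cell, with bars from 0, genes not detected in a cell counting 0 and each list on an axis of its own. The macrophage bar of L1 reaches 318, the oviduct and stroma bars are tallest in I1 (83.4 and 108), and the maternal bars are tallest in L1 and L2 (302 and 347).

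The marker lists of other sources had low summed signals. The summed signal of 7 erythroid markers was 1.99 in I1 and 0.0535 to 0.543 in the other cells, with Hba-a1, an alpha globin, at 0.34 in I1 and -3.39 in I2. Cumulus and granulosa markers summed to 0.686 to 2.17. Of 23 on the array, 3 to 10 were detected per cell. In all 6 cells 2 were detected, with medians of -2.48 in I1 to -0.92 in D2. Fshr, Foxl2, Cyp11a1, Star and Gja1 were undetected in every cell. Endothelial markers summed to at most 0.495, with 2 to 5 of 10 detected per cell. Sperm markers summed to at most 1.12, with 0 to 5 of 10 detected per cell. Cdh5, Tie1, Tnp1 and Tnp2 were undetected throughout.

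Single genes differed more between sisters than the medians of the lists. Over 2-fold differences were found at 1347 probes in pair D (19.9%), 1889 in pair I (27.9%) and 1765 in pair L (26.1%). In pair D, Slpi, a secreted protease inhibitor, was -3.07 in D1 and 1.41 in D2, and Ufd1, a cofactor of protein degradation, was -0.14 in D1 and at the floor in D2. In pair I, Myh14, a non-muscle myosin, was 1.52 in I1 and -3.43 in I2, and Trp53bp1, a DNA repair protein, was -3.89 in I1 and 0.20 in I2. In pair L, Glg1, a Golgi protein, was 1.30 in L1 and -3.19 in L2, and Zfp935 was -3.93 in L1 and 0.52 in L2. Slpi was also uneven in pair I, at 0.45 and -1.21, and in pair L, at 0.68 and -1.47, while Trp53bp1 lay between -3.15 and -1.58 in pairs D and L. Mrps34, a mitochondrial ribosomal protein, was 1.88 in I1 and -2.45 in I2, and 0.48 and -1.83 in L. The chemokine Ccl6 was 0.92 in L1 and -3.73 in L2, beside the macrophage markers of L1. Sbf2 was lower in cell 1 both in I (-3.62 and -0.43) and in L (-2.37 and 0.94), but another of its probes was between -3.00 and -2.16 in all cells.

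Cell number carried little that was common to the 3 pairs. With embryo as a block, limma called 0 of 18373 probes (0.0%) between cell 2 and cell 1, 951 (5.18%) had an unadjusted p under 0.05, and the smallest Benjamini-Hochberg adjusted p was 0.661. Cell 2 exceeded cell 1 by over 2-fold in all 3 pairs at 23 probes (0.34%) and was lower by as much at 14 (0.207%). Mospd3 was lower in cell 2 each time, at -1.93 and -3.65 in D, -2.02 and -3.56 in I and -1.43 and -3.09 in L. Ptpn2, a protein tyrosine phosphatase, was higher in cell 2 each time, at -0.51 and 0.54, -0.09 and 1.06, and -0.36 and 0.72. Rangap1, of the nuclear transport cycle, was also higher in cell 2, and Atp9b lower.

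A few transcripts were alike in all 6 cells. Among the 500 brightest genes detected in all 6, Gdi2, a regulator of Rab GTPases, had the smallest range, at 4.29 and 4.3 in D, 4.14 and 4.21 in I and 4.28 and 4.21 in L, within 1.12-fold. Camsap1, Prpsap1, Ndufb11, Calm2, Eif1, Ubl5, Cs, Ppp1cc and Usp16 completed the 10 with the smallest ranges. Citrate synthase (Cs) was between 4.0 and 4.40 in all cells, and the complex I subunit Ndufb11 between 2.04 and 2.36. These genes were chosen for their small range, so similar levels in I1 and I2 followed from the choice.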

How the data were processed

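The cells, gene lists and tests were chosen with earlier results of these data known. Arrays were read as deposited intensity values in scanner files, which per the file headers Agilent Feature Extraction 9.1.3.1 had produced. Red processed signals were used because these arrays carry their signal in red, although Cy3 is the dye labelled. Outlier spots were left out, spots of a probe averaged, signals divided by the array's 75th percentile over the 6762 probes detected (flagged well above background) in all 6 cells, raised to a common floor of 0.0635 (the dimmest detected signal per array, taken from the array where it was highest) and log2 transformed. The tests covered 18373 probes detected in at least 2 cells. A probe could be flagged as detected and still lie at the floor. A total of 21 probes, outliers in all spots of an array, were left out. Replicate spots of a probe had a median SD of 0.114 to 0.147 (log2). The number of arrays limits the precision.

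Tests used limma 3.58.1 in R 4.3.3 with Benjamini-Hochberg adjustment over all tested probes, embryo as a factor, and embryo as a fixed block for cell number. P-values measure the spread between these cells only. Exact permutation tests ran over the 15 pairings. Fits were tested on simulated data. Other scalings, floors, filters, normexp, the deposited value table (intensity per the labels, divided by 1 constant per array), a replicate block and leaving out cells were tried. Python 3.11.15, numpy 2.4.6, pandas 2.3.3, scipy 1.17.1 and matplotlib 3.10.9 were also used.

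A gene is its probe with the highest mean. Probes were named by RefSeq accession (22944), by symbol (6664) or synonym (3108), kept the file's name (2014) or had none (6444). Named genes were the 20 with the smallest p between embryos, the 5 with the widest gap above and below per embryo, the 5 brightest present or absent in 1 embryo, the 4 with the largest sister difference per direction and pair, the 10 most even, the 4 smallest p for cell number, up to 4 largest and 2 smallest ratios per list, and any marker of other cells. Other list members named (Pax8, Junb, Cdx2 and the like) were singled out after their values were seen. At least folds set the mean of the brighter cells against the floor or the probe's own signal where higher.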

Additional observations from a re-analysis of the deposited data

Results flagged for a closer look

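The green channel, which no comparison used, held spots well above background on every array. There were 150 in D1, 160 in D2, 129 in I1, 68 in I2, 93 in L1 and 107 in L2, of 43379 non-control spots. Of these, 134, 110, 104, 55, 71 and 86 were also well above background in red, in the same order of cells. Across the 6 arrays 449 probes were above background in green on at least 1 array and 13 on all 6. What this signal is was not tested.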

How the results depend on the processing

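Sisters stayed closer than cells of different embryos under every alternative run, with permutation p from 0.0667 to 0.2, and with 0.783 to 0.902 when 1 pair was left out, where 0.333 is the smallest p of 3 pairings. With a replicate block the mean sister difference was 0.687. The cell numbers share only a number, since the correlation of cell 2 minus cell 1 across 6762 probes was -0.10, 0.05 and 0.13 between pairs. The replicate block called 0 probes between embryos. That count was 39 over all-probe scaling, 28 after quantile normalization, 1 with a floor per array, 33 with detection on at least 1 array, 14 with no filter, and 0 to 3831 when 1 cell was left out. Summed over the single contrasts it was 90, 54, 7, 61 and 28 under the same alternatives, 3 with normexp, 2 over probes detected on all 6 arrays and 0 to 8303 when 1 cell was left out (8303 without L1, 977 without L2). Joint changes chosen after seeing the data gave, over probes detected on all 6 arrays, 41 and 104 with all-probe scaling, 3 for the contrasts with quantile normalization, and 6 for cell number with all-probe scaling. All-probe and quantile calls shared 6 probes, 15.4% and 21.4% of each list. Detection differed within pairs at 6654 to 8722 probes when 1 pair was left out, and exceeded the value between embryos (7258) without pair I. Calling detection by the floor gave 362 probes shared by sisters alone, not 812. The share of probes with the larger spread between embryos was 44.7% over all tested probes, 57.8% with all-probe scaling, 61.6% with normexp and 61.3% from the deposited table. Of 813 values followed for 48 named genes, 729 kept direction and call, 83 were called only under the alternative, and 1 reversed (Evc2, I minus D, -0.23 with normexp). The cause of these changes was not tested.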

Other observations

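Of 15 sex chromosome genes on the array, 3 were detected in D1, 6 in each of D2, I1 and I2, 4 in L1 and 8 in L2. The count in L2 includes Y-linked members that are not named here. Tsix, Ddx3y, Kdm5d, Usp9y and Uba1y were not detected in any cell, Xist was flagged in I1 only, by 1 of its probes at the floor, and Eif2s3y was flagged as detected in I2 only, at the floor. Of the X-linked genes with Y copies, Ddx3x was 1.03 and 1.43 in D, 1.06 and 1.71 in I and 1.67 and 2.10 in L, and Kdm5c was -0.28 and -0.14 in D, -0.71 and -1.02 in I and -0.44 and -0.30 in L. Eif2s3x was -1.52 and -0.54 in D, -0.79 and -2.12 in I and 0.06 and 0.70 in L, highest in both cells of pair L, which its dimmer probes did not repeat.

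Several of the 20 genes with the smallest p between embryos were dim and at the floor in 2 embryos. Evc2, a cilium protein, was -2.78 and -2.77 in I and at the floor in D and L. Sp6, a zinc finger factor, was brighter, at 0.14 and -0.35 in D, -2.48 and -2.51 in I and undetected in L. Agmat was -0.51 and -0.89 in D and at the floor in the other 4 cells.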
